A study of Callithrix jacchus with 4 samples.

Results

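CXCL10+ reactive astrocytes are the astrocyte nuclei of injured marmoset visual cortex in which at least 1 CXCL10 transcript was counted. They were selected on their CXCL10 count: a nucleus had to carry the deposited cell type Astro, hold 1000 or more UMIs (unique molecular identifiers, each standing for 1 captured transcript) and have at least 1 CXCL10 UMI. The choice gave 317 nuclei of the 2071 injured astrocyte nuclei of that depth, and of 38147 nuclei in the whole series. The other 1754 astrocyte nuclei, with 0 CXCL10 UMIs, are called CXCL10- here. A further 36 astrocyte nuclei lay below the depth limit, and 3 of them had a CXCL10 UMI.

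Ischemic stroke was induced in V1 (primary visual cortex) of adult common marmosets by injecting the vasoconstrictor peptide endothelin-1, and gray matter that included the infarct core and the penumbra was taken after 7 days. Each of the 3 injured animals gave 1 library of nuclei, named injured replicates 1, 2 and 3. A single control library pooled V1 nuclei from 3 uninjured adult animals, and its nuclei were isolated with another protocol and sequenced at another facility. CXCL10 is not listed in the control table, so all tests compare CXCL10+ with CXCL10- nuclei within the injured libraries.

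CXCL10 is a secreted chemokine that attracts activated T cells and natural killer cells through the receptor CXCR3, which it shares with the ligands CXCL9 and CXCL11. Its transcription is driven by interferons, through interferon regulatory factors, and by NF-kappaB downstream of tumor necrosis factor, interleukin-1 and pattern recognition receptors. Astrocytes normally clear glutamate and buffer potassium and bicarbonate around neurons, and after injury they become reactive, with altered cytoskeletal, adhesion and immune gene expression.

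The label Astro held in these nuclei. SLC1A3, the glial glutamate and aspartate transporter, stood at 2556, 2314 and 3249 CPM (UMIs per 1000000 UMIs of the summed nuclei) in the CXCL10+ nuclei of injured replicates 1, 2 and 3, against 133, 74 and 170 CPM in microglia. ALDH1L1, an astrocyte enzyme of folate metabolism, stood at 417, 450 and 323 CPM, and was at most 22.5 CPM in the nuclei of any other type. In OPC nuclei (oligodendrocyte precursors) SLC1A3 stood at 352, 199 and 299 CPM, the highest of the other types. The filament gene GFAP did not set the members apart from OPC nuclei, at 448, 391 and 437 CPM against 502, 209 and 581 CPM. Of the members, 97.5% had an SLC1A3 UMI, as had 96.5% of the CXCL10- nuclei. Most members sat in 1 deposited cluster, number 18, which held 97.8%, 97.5% and 89.9% of the CXCL10+ and 97.2%, 96.8% and 93.1% of the CXCL10- nuclei of the 3 libraries, so the class is not a deposited cluster of its own.

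The members came unequally from the animals. In injured replicate 1, 45 of 398 astrocyte nuclei were CXCL10+ (11.3%, exact 95% interval 8.37 to 14.8%), in replicate 2 203 of 896 (22.7%, 20.0 to 25.5%) and in replicate 3 69 of 777 (8.88%, 6.97 to 11.1%), with a mean of 14.3% ± 7.35 (SD, n = 3). Replicate 2 held most of the members and had the highest share in every one of the 7 deposited cell types. Summed over all astrocyte nuclei, CXCL10 stood at 69.3, 299 and 39.5 CPM. These intervals cover counting error only.

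Most members had a single CXCL10 UMI, and a small number held most of the transcripts. Exactly 1 UMI was counted in 192 members (60.6%), 2 or 3 in 47, 4 to 9 in 42 and 10 or more in 36, up to 47 in 1 nucleus. The 36 nuclei with 10 or more UMIs held 51.9% of the 1170 CXCL10 UMIs, and the 192 nuclei with 1 UMI held 16.4%. The members just inside the limit thus differ from the CXCL10- nuclei just outside it by 1 UMI.

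Free RNA in the droplets can give such single UMIs, and its amount was not measured here. The shares in neurons and oligodendrocytes are given for comparison. At least 1 CXCL10 UMI was found in 8.19% ± 4.25 of ExN nuclei (excitatory neurons, median depth 5392.5 to 7091 UMIs over the libraries) and in 6.94% ± 4.13 of Oligo nuclei (oligodendrocytes, 2017.5 to 3086 UMIs), against 14.3% ± 7.35 of astrocytes (2956.5 to 5301 UMIs; each mean ± SD, n = 3). With every nucleus thinned to 1000 UMIs, the shares were 6.36% ± 5.36 in astrocytes, 1.68% ± 1.14 in ExN and 3.56% ± 2.28 in Oligo. At 4 or more UMIs astrocytes stood apart from ExN and Oligo nuclei but not from OPC nuclei. This count was reached by 7 of 398, 61 of 896 and 10 of 777 astrocyte nuclei. It was reached by 2 of 1855, 4 of 4530 and 1 of 2997 ExN nuclei and by 1 of 988 Oligo nuclei of replicate 2. In InN nuclei (inhibitory neurons) 0 of 390, 1 of 1057 and 0 of 690 reached it. Their interval in replicate 1 (0 to 0.941%) overlapped that of the astrocytes (0.710 to 3.59%). In OPC nuclei 2 of 279, 23 of 433 and 3 of 390 reached it, and in replicate 2 their share of 5.31% (exact 95% interval 3.40 to 7.86%) overlapped that of the astrocytes. The astrocyte share of 1.76%, 6.81% and 1.29% lay below that of the vascular nuclei (Endo, 7.04%, 18.7% and 5.65%) and of the microglia (5.42%, 16.8% and 2.88%) in every library.

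**Figure D1:**
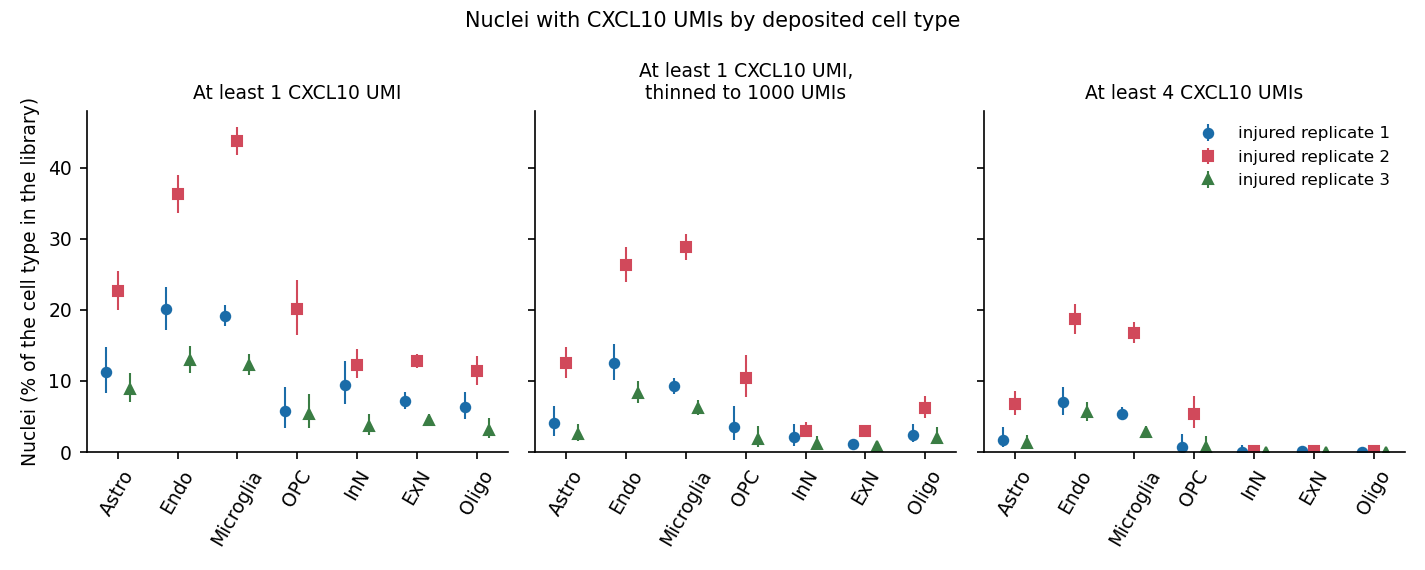
Share of nuclei with CXCL10 UMIs (percent of the nuclei of a cell type in a library, y axis) for each deposited cell type (x axis) and injured library (colour and shape), with exact 95% binomial intervals. From left to right, at least 1 UMI, at least 1 UMI after thinning to 1000 UMIs, and at least 4 UMIs, where astrocytes reach 1.29 to 6.81% and ExN at most 0.108%.

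Depth moved with the class. Median depth was 5508 UMIs in CXCL10+ and 5279 in CXCL10- nuclei of replicate 1, 3698 and 2821 in replicate 2, and 6129 and 4589 in replicate 3. With the nuclei of each library split by depth into 3 equal bins, the share of CXCL10+ nuclei went from 9.77 to 15.2%, from 13.4 to 35.9% and from 5.79 to 15.4% between the shallowest and the deepest bin. In the middle bin it was 9.02%, 18.7% and 5.41%, so it did not rise steadily with depth in replicates 1 and 3. Deeper nuclei are more likely to show a UMI, so counts with thinned nuclei and with CXCL10- nuclei matched in depth are given for the gene lists in which genes passed. The injured libraries shared 60 cell barcodes, carried by 3 members and 10 CXCL10- astrocyte nuclei.

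To ask what else these nuclei express, UMIs were summed per library and class and compared within the libraries, without CXCL10. CXCL10+ nuclei had higher levels of the cytokine genes CXCL11 and IL7 and of some interferon-gamma-response and NF-kappaB genes, and lower levels of some transporters of resting astrocytes such as SLC1A2. SLC1A2 did not pass without injured replicate 2 or against CXCL10- nuclei matched in depth. Apart from CXCL11, the 1 CXCR3 ligand tested, most tested members of every gene list did not pass, nor did the glial filament gene GFAP. Of 10858 genes tested, 108 were called higher (0.995%) and 26 lower (0.239%). Genes were called at an adjusted p under 0.01 when the fold change exceeded 0.25 on the natural-log scale in either direction and 10% or more of the nuclei of 1 class had a UMI. All adjusted p-values are from edgeR's quasi-likelihood test with Benjamini-Hochberg adjustment over all genes tested. The median rise among the genes called higher was 0.94 on the log2 scale and the median fall among those called lower -0.68. The difference had the same direction in all 3 libraries for 107 of the 108 and for all 26, and the levels of the classes did not overlap for 63 and 25 of them, against 13.7% of all genes tested.

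The calls leaned on injured replicate 2, which held 203 of the 317 members. Without it 12 of 10004 tested genes were called higher and 1 lower. Among them were CXCL11, IL7, IDO1, IRF1, WARS, PTX3, SLC39A8, DDX58, IFIT1 and, lower, SLC4A4. All 134 genes kept their direction in that fit, but its libraries had also served to choose them. Of the gene lists, that of astrocyte homeostasis then had 1 of 27 called, with a median log2 difference of -0.43, that of reactive astrocyte genes 1 of 21, with 0.46, and that of other chemokines and cytokines 1 of 9, with 0.41. Without replicate 1, 199 of 10582 genes were called, and without replicate 3, 144 of 10557.

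Chemokines and cytokines held some of the largest differences. CXCL11, the chemokine closest to CXCL10 in receptor and regulation, stood at 162, 349 and 82.6 CPM in CXCL10+ nuclei of replicates 1, 2 and 3, against 14.4, 70.5 and 8.50 CPM in CXCL10- nuclei, a rise of 2.75 ± 0.21 (log2, standard error, adjusted p = 2.18e-07). IL7, a cytokine that sustains lymphocytes, stood at 587, 1092 and 522 CPM against 71.4, 269 and 47.2 CPM (2.72 ± 0.18, adjusted p = 5.48e-08). Every CXCL10+ level of both genes lay above every CXCL10- level. IL7 UMIs were found in 33.8% of members and 11.7% of CXCL10- nuclei. IL7 was the 1 of 11 tested members of the list of other chemokines and cytokines that passed, with a list median of 0.74 beside 0.01 over all genes tested. In thinned nuclei it was 1 of 6, with a median of 0.27, and against matched nuclei 1 of 8, with 0.45. CXCL9, the remaining CXCR3 ligand, was too low to test, with 12 UMIs in CXCL10+ nuclei, all of replicate 2, and 8 in CXCL10- nuclei.

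Genes induced by interferon-gamma rose in part. IDO1, which opens the breakdown of tryptophan to kynurenine, stood at 525, 1054 and 372 CPM against 108, 371 and 28.7 CPM (2.28 ± 0.23, adjusted p = 1.46e-05). WARS, the tryptophanyl-tRNA synthetase, rose by 0.88 ± 0.11 (adjusted p = 7.81e-05) and GBP1, a guanylate-binding protein that acts on intracellular pathogens, by 0.58 ± 0.11 (adjusted p = 0.00386). In all, 5 of 13 tested members of this list rose and 0 fell, with a median of 0.79. Without replicate 2 it was 2 of 11, in thinned nuclei 2 of 10 and against nuclei matched in depth 2 of 11, with medians of 0.75, 0.44 and 0.51. The others that rose, named after their values were seen, were CD274, which encodes the T cell inhibitor PD-L1 (1.41 ± 0.21, adjusted p = 0.000544), and EPSTI1 (0.82 ± 0.13, adjusted p = 0.00131). GBP genes are a family of similar sequence, and reads could be split between them.

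Upstream of these, IRF1, a transcription factor of the interferon-gamma response, stood at 421, 515 and 270 CPM against 185, 274 and 123 CPM and rose by 1.05 ± 0.11 (adjusted p = 2.36e-05). JAK2, a kinase of the interferon-gamma receptor, also rose (1.10 ± 0.17, adjusted p = 0.00109; named after its value was seen). These were 2 of 15 tested genes of interferon receptors, JAK, STAT and IRF, with a list median of 0.36, and without replicate 2 it was 1 of 14. In thinned nuclei 2 of 12 were called, with a median of 0.18, and against matched nuclei 1 of 12, with 0.28.

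Some NF-kappaB genes rose too. BIRC3, a ubiquitin ligase that protects from cell death downstream of tumor necrosis factor, stood at 38.6, 55.5 and 12.1 CPM against 0.533, 8.04 and 4.40 CPM (2.83 ± 0.45, adjusted p = 0.00125), from 59 and 33 UMIs in all. TNFAIP3, the feedback inhibitor A20, stood at 61.8, 190 and 63.2 CPM against 26.1, 48.2 and 11.7 CPM (1.93 ± 0.21, adjusted p = 2.36e-05). Both genes were higher in every library, with no overlap between the classes. NFKB1, the gene of subunit p50, rose by 0.98 ± 0.18 (adjusted p = 0.00496). Of 23 tested members, 5 rose and 0 fell, with a median of 0.80. Without replicate 2, 0 of 20 were called and the median was 0.37, and in nuclei thinned to 1000 UMIs 0 of 15 were called, with a median of 0.76. Against matched nuclei 3 of 16 were called, BIRC3 (2.24), TNFAIP3 (1.34) and VCAM1 (1.43), with a median of 0.49. The others, named after their values were seen, were the adhesion molecule VCAM1 (1.76 ± 0.23, adjusted p = 0.000159) and NFKBIZ, a nuclear regulator of NF-kappaB (1.59 ± 0.30, adjusted p = 0.00549).

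Some sensing and antiviral genes rose as well. DDX58, the RNA sensor RIG-I, stood at 865, 1792 and 690 CPM against 526, 1345 and 343 CPM (0.69 ± 0.10, adjusted p = 0.000812). DDX60 rose by 0.50 ± 0.09 (adjusted p = 0.00372), and the DNA sensor CGAS, named after its value was seen, by 1.02 ± 0.16 (adjusted p = 0.0011). With IFIH1 (0.76 ± 0.15, adjusted p = 0.00738), 4 of 10 tested sensing genes rose, with a median of 0.44. Among antiviral effectors, 5 of 32 rose, with a median of 0.36, and IFIT1 stood at 896, 1164 and 586 CPM against 490, 817 and 308 CPM (0.75 ± 0.10, adjusted p = 0.00023). The other 4 were OAS1 (1.57), RSAD2 (1.41), ZC3HAV1 (0.82) and MX2 (0.64), named after their values were seen. MX1, with a difference of 0.38 ± 0.10 (adjusted p = 0.0445), did not pass. The levels of DDX58 and IFIT1 in CXCL10- nuclei of replicate 2 were above those in CXCL10+ nuclei of replicate 3, so the classes overlapped between animals. Without replicate 2, 1 of 9 sensing and 2 of 31 antiviral genes were called, in thinned nuclei 1 of 7 and 1 of 27, and against matched nuclei 1 of 7 and, by edgeR, 0 of 29. Of 5 tested genes of ISG15 conjugation, 0 passed, with a median of 0.09. In MHC class I presentation, 2 of 14 rose, with a median of 0.30, and 0 of 12 without replicate 2, 1 of 10 in thinned and 1 of 11 against matched nuclei. They were B2M, the shared light chain (0.44 ± 0.08, adjusted p = 0.00323), and CAJA-E (0.65 ± 0.11, adjusted p = 0.00185), whose reads could be split with other class I genes. Among cell death effectors, 2 of 11 rose, with a median of 0.55: CASP4, an inflammatory caspase (0.81 ± 0.15, adjusted p = 0.00359), and CFLAR, an inhibitor of caspase-8 (0.64 ± 0.12, adjusted p = 0.00337). This list had 0 calls without replicate 2 (of 8), without replicate 3 (of 10), in thinned and in matched nuclei (of 5 each) with edgeR, and 0 of 11 with DESeq2.

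**Figure D2:**
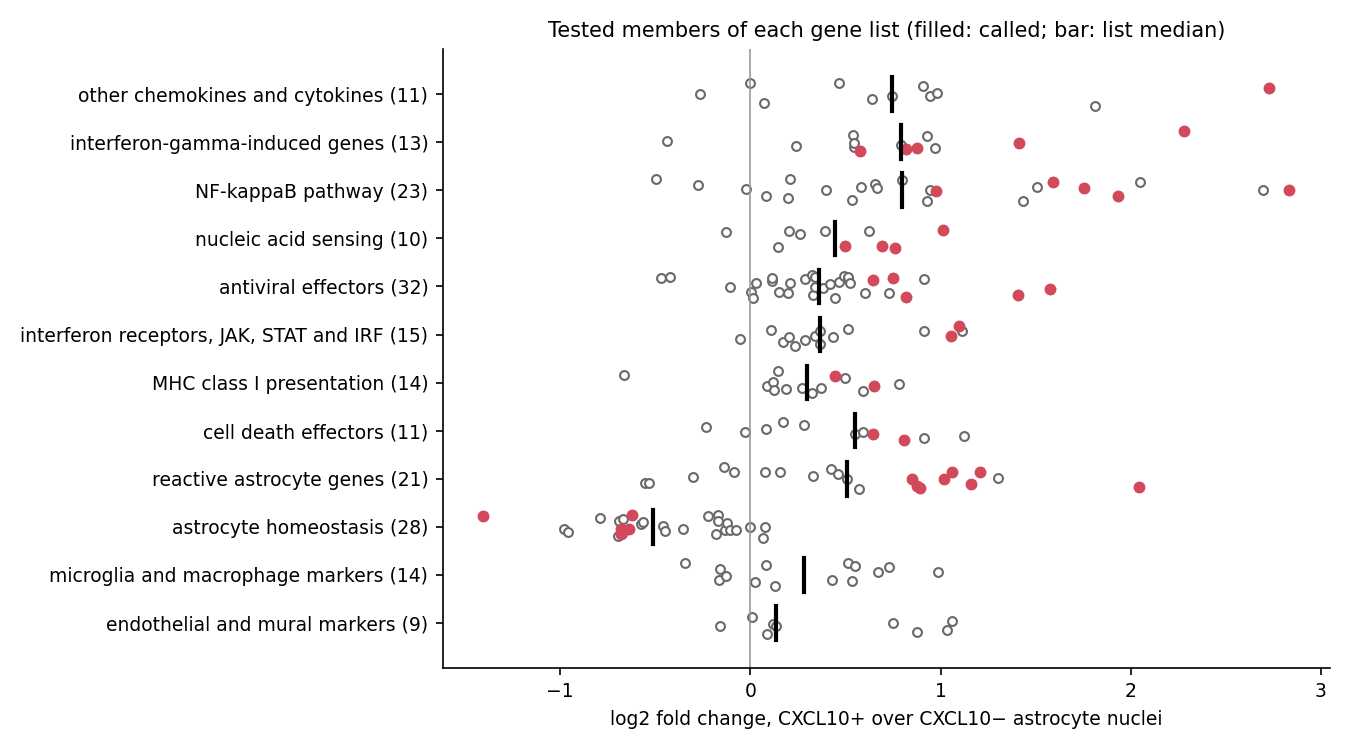
Log2 fold change of CXCL10+ over CXCL10- astrocyte nuclei (x axis) for each tested member of 12 gene lists (rows, number tested in brackets). Filled points were called and black bars are list medians, which are 0.80 for the NF-kappaB list, 0.79 for interferon-gamma-induced genes, 0.36 for antiviral effectors and -0.51 for astrocyte homeostasis.

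Reactive astrocyte genes rose unevenly. PTX3, a secreted pentraxin of the innate immune response, stood at 185, 362 and 131 CPM against 32.0, 74.7 and 51.6 CPM (2.04 ± 0.18, adjusted p = 2.61e-06). CD44, the hyaluronan receptor, stood at 587, 738 and 780 CPM against 343, 327 and 480 CPM (0.89 ± 0.11, adjusted p = 8.01e-05), and again no CXCL10- level reached the CXCL10+ levels. GAP43, a membrane protein of growing axons, rose by 0.85 ± 0.11 (adjusted p = 0.00023), KLF6, a zinc-finger transcription factor, by 0.87 ± 0.14 (adjusted p = 0.00131), and OSMR, the oncostatin M receptor, by 1.02 ± 0.21 (adjusted p = 0.00932). In all, 8 of 21 tested members rose and 0 fell, with a median of 0.51. In thinned nuclei 3 of 16 were called, PTX3, CD44 and GAP43, and against matched nuclei 1 of 18, PTX3. Without the filter on low counts, 9 of 32 were called and the median was 0.05. The others were TNC, TIMP1 and CHI3L1, at 1.16 ± 0.15, 1.21 ± 0.24 and 1.06 ± 0.18, named after their values were seen. GFAP, a filament gene that the study lists among both astrocyte and pan-reactive markers, did not pass. It stood at 448, 391 and 437 CPM against 534, 464 and 578 CPM, lower in all 3 libraries without overlap (-0.30 ± 0.10, adjusted p = 0.141). VIM (0.57 ± 0.14, adjusted p = 0.0304), RTN4, which encodes Nogo (0.42 ± 0.10, adjusted p = 0.0223), and SERPINA3 (0.07 ± 0.24, adjusted p = 0.941) did not pass either.

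Among the 10 largest rises, those outside the lists were RASSF5, SLC39A8, ICAM5 and a gene without a symbol. RASSF5, a Ras and Rap effector best known in lymphocyte adhesion, stood at 38.6, 99.6 and 29.2 CPM against 9.59, 7.09 and 7.91 CPM (2.78 ± 0.33, adjusted p = 7.57e-05). SLC39A8, a zinc importer, stood at 181, 508 and 243 CPM against 41.0, 110 and 70.3 CPM (2.05 ± 0.14, adjusted p = 5.48e-08). Both were higher in every library without overlap. ICAM5, an adhesion molecule known from telencephalic neurons, rose by 2.05 ± 0.24 (adjusted p = 6.81e-05), from 113 and 100 UMIs. Its neighbour ICAM1 is not listed in the injured table, and whether reads of ICAM1 enter the ICAM5 count was not tested. The gene without a symbol, ENSCJAG00000001988, rose by 1.90 ± 0.16 (adjusted p = 9.65e-07).

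**Figure D3:**
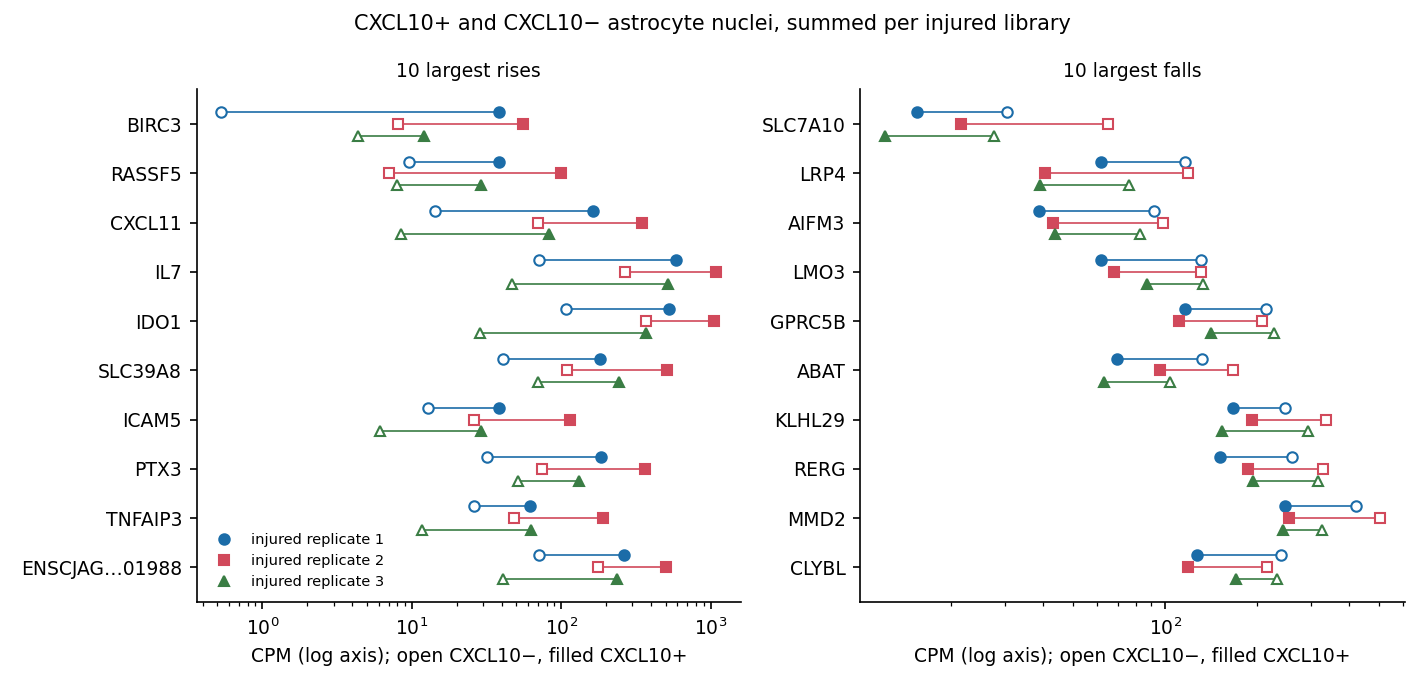
Levels (CPM, log axis) of the 10 largest rises (left) and 10 largest falls (right) in CXCL10- (open) and CXCL10+ (filled) astrocyte nuclei, summed per injured library (colour and shape). The genes were chosen among those with 1 direction in all 3 libraries, and IL7 goes from 71.4, 269 and 47.2 CPM to 587, 1092 and 522 CPM.

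Some genes of resting astrocytes fell. SLC1A2, the main transporter that clears glutamate, stood at 2738, 3102 and 2653 CPM in CXCL10+ and at 3559, 5517 and 4262 CPM in CXCL10- nuclei (-0.64 ± 0.09, adjusted p = 0.00026). SLC4A4, the sodium bicarbonate cotransporter, stood at 788, 860 and 1344 CPM against 1376, 1355 and 2030 CPM (-0.68 ± 0.09, adjusted p = 0.000137). SLC1A2 was lower in every library without overlap, and so was SLC4A4. Without replicate 2 SLC4A4 was called and SLC1A2 was not, and neither was called against CXCL10- nuclei matched in depth. SLC7A10, a transporter of D-serine and other small amino acids, stood at 15.4, 21.4 and 12.1 CPM against 30.4, 65.3 and 27.5 CPM and gave the largest fall among the called genes (-1.40 ± 0.28, adjusted p = 0.0075), from 26 and 289 UMIs. Of 28 tested homeostasis genes, 6 fell and 0 rose, with a median of -0.51. They included, named after their values were seen, ATP1B2, a subunit of the sodium pump (-0.68 ± 0.12, adjusted p = 0.00273), and NDRG2 (-0.62 ± 0.13, adjusted p = 0.00853). Genes of the same list that did not pass included SLC1A3 (0.07 ± 0.08, adjusted p = 0.793) and AQP4, the water channel (-0.18 ± 0.10, adjusted p = 0.478).

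The other 9 of the 10 largest falls were of varied function. ABAT, which degrades GABA, stood at 69.5, 95.8 and 63.2 CPM against 132, 166 and 103 CPM (-0.80 ± 0.16, adjusted p = 0.00691). LRP4 (ENSCJAG00000019944), a co-receptor in agrin and Wnt signalling, fell by 1.23 on the log2 scale, AIFM3 by 1.12, LMO3 by 0.85, the orphan receptor GPRC5B by 0.82, KLHL29 by 0.79, RERG by 0.77, MMD2 by 0.75 and CLYBL by 0.72. The adjusted p-values of these 8 (edgeR) were between 0.00107 and 0.00551.

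Fewer genes passed in thinned nuclei and against matched nuclei. The classes in the thinned nuclei were still those of the raw counts, so thinning did not undo the link between depth and class. With every nucleus thinned to 1000 UMIs, 29 of 6115 tested genes were called higher and 8 lower, and with each member set against the CXCL10- nucleus nearest in UMIs, 26 of 7275 were called higher and 1 lower. Of the 134 genes, 131 and 133 were tested there and kept their direction, though the same members had served to choose them. CXCL11, IL7, IDO1, PTX3, SLC39A8 and IRF1 were called in both. SLC1A2 and SLC4A4 were called in the thinned nuclei (-0.70 and -0.65) and missed the limit in the matched nuclei (-0.27 and -0.50). Against the matched nuclei IL7 differed by 1.96, CXCL11 by 2.10 and IDO1 by 1.43, below the 2.72, 2.75 and 2.28 over all CXCL10- nuclei. In thinned nuclei IL7 differed by 2.63, CXCL11 by 2.49 and IDO1 by 1.88. The median of the genes called higher over all nuclei was 0.94 there, 1.03 in thinned nuclei and 0.71 against matched nuclei. Thinning also left fewer genes and UMIs to test, and matching left 317 of the 1754 CXCL10- nuclei. The part of depth in the loss of calls was not tested. Of the homeostasis genes 3 of 26 were called lower in thinned nuclei, with a median of -0.48, and edgeR called 0 of 26 against matched nuclei, with a median of -0.28.

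To separate members with a single UMI from those with more, each was compared with CXCL10- nuclei, a split chosen after the data were seen. The 192 members with 1 UMI differed from CXCL10- nuclei in 1 of 10398 genes (0.00962%), IL7, at 1.12. By contrast, the 78 members with 4 or more UMIs gave 148 rises (1.42%) and 167 falls (1.6%) among 10406 genes. These 78 nuclei were deeper than the CXCL10- nuclei, with medians of 7586, 4577 and 7244.5 UMIs in the 3 libraries against 5279, 2821 and 4589, and the part of depth in this split was not tested. In a direct comparison of members with 2 or more UMIs against those with 1, 59 genes were higher (1.07%) and 45 lower (0.819%) of 5495.

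Members with more CXCL10 UMIs differed further from CXCL10- nuclei in several genes, though not step by step. IL7 stood at 71.4, 269 and 47.2 CPM at 0 UMIs, at 127, 514 and 164 CPM at 1 UMI and at 1277, 1995 and 760 CPM at 4 or more. IDO1 stood at 108, 371 and 28.7 CPM, then 159, 509 and 184 CPM, then 796, 1577 and 929 CPM. Both genes were above the CXCL10- level at 1 UMI, and further above it at 4 or more, in every animal. The bin of 2 to 3 UMIs broke the order in some: IL7 stood there at 1322, 788 and 3082 CPM and IDO1 at 1359, 1536 and 861 CPM. SLC1A2 stood at 3559, 5517 and 4262 CPM at 0 UMIs, at 3670, 4776 and 3133 CPM at 1 UMI, at 1284, 1885 and 944 CPM at 2 to 3 and at 1298, 1388 and 1464 CPM at 4 or more. GFAP stood at 534, 464 and 578 CPM at 0 UMIs and at 398, 345 and 324 CPM at 4 or more. Both genes were lower at 4 or more UMIs than at 0 in every animal, while SLC1A3 stood at 3287, 2459 and 3406 CPM in them, against 2410, 2105 and 3303 CPM at 0 UMIs.

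In members with 4 or more UMIs, 15 of 28 homeostasis genes were called lower, with a list median of -1.26. SLC1A2 differed by -1.80 on the log2 scale (adjusted p = 1.31e-17) and SLC4A4 by -1.57 (adjusted p = 4.51e-11). NF-kappaB genes had 8 of 21 called higher, with a median of 1.39, and antiviral effectors 8 of 32, with a median of 0.63. The libraries contributed 7, 61 and 10 of these nuclei, so most of the weight lay in replicate 2. Without replicate 2, 52 genes were called higher and 37 lower.

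**Figure D4:**
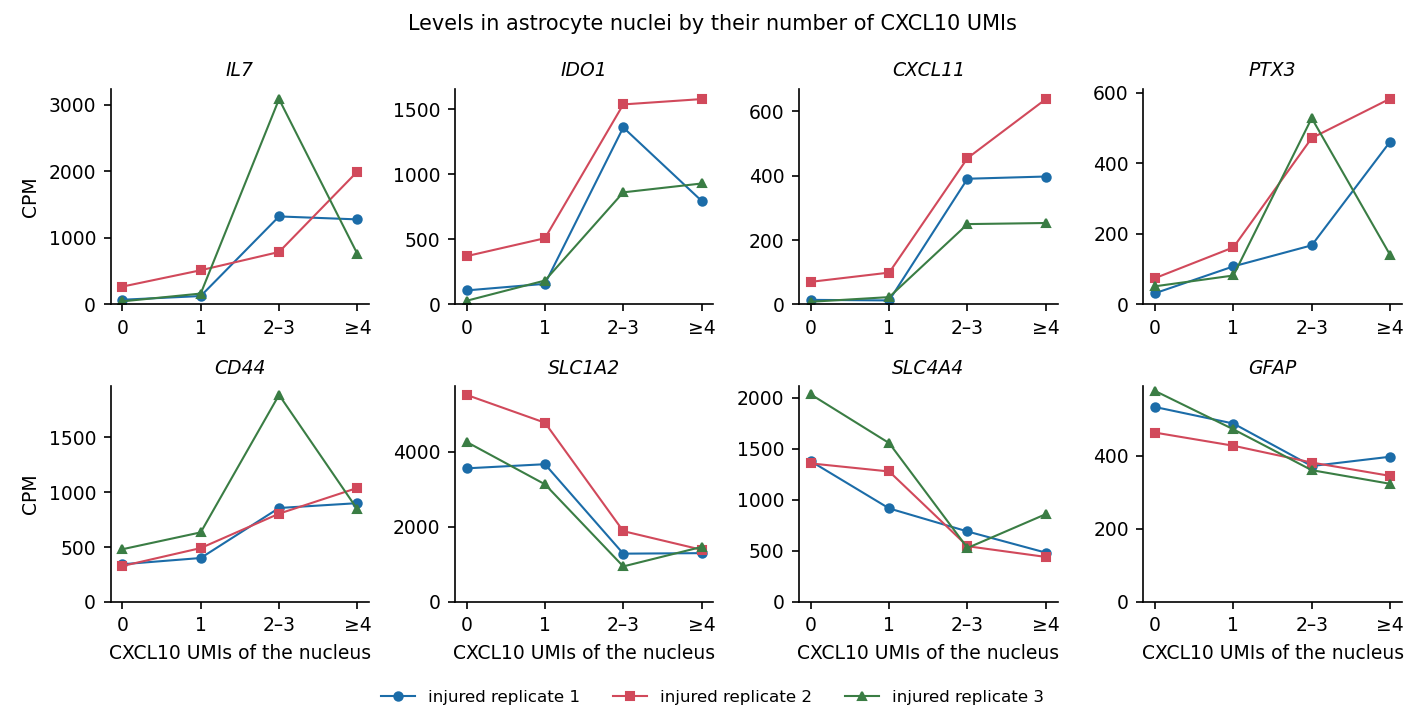
Levels (CPM, y axes from 0) of 8 genes in astrocyte nuclei with 0, 1, 2 to 3 and 4 or more CXCL10 UMIs (x axis), for each injured library (colour and shape). Between 0 and 4 or more UMIs, IL7 goes from 71.4, 269 and 47.2 to 1277, 1995 and 760 CPM and SLC1A2 from 3559, 5517 and 4262 to 1298, 1388 and 1464 CPM. The bin of 2 to 3 UMIs holds 10, 30 and 7 nuclei.

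Markers of other cell types were measured in the same nuclei, since a mixed droplet could bring CXCL10 along. Summed microglia and macrophage markers stood at 602, 444 and 571 CPM in CXCL10+ and 566, 467 and 397 CPM in CXCL10- astrocyte nuclei, against 7236 to 7751 CPM in microglia. In members with 4 or more UMIs they stood at 398, 453 and 1013 CPM. Of 14 tested microglia markers 0 were called. Among these 14, 10 lay above 0, with a list median of 0.28 beside 0.01 over all genes tested. P2RY12 differed by -0.16 and CD74 by 0.13. Endothelial and mural markers stood at 309, 701 and 493 CPM against 416, 478 and 456 CPM, with 0 of 9 called and a median of 0.14, and stood at 7014 to 8816 CPM in Endo nuclei. T and NK cell markers stood at 34.7, 35.3 and 41.3 CPM against 74.0, 66.2 and 57.1 CPM. CD3E, CD3G, CD8A and CXCR3 had 0 UMIs in the members, and 0 of 2 tested genes of that list were called. For these lists edgeR called 0 genes, and so it did for markers of oligodendrocytes (0 of 5), their precursors (0 of 3), excitatory neurons (0 of 6) and inhibitory neurons (0 of 2).

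The microglia and the endothelial and mural markers were lower in astrocyte nuclei than in microglia and Endo nuclei, but not absent. Of the 2071 astrocyte nuclei 375, 62 of them CXCL10+, carried no UMI of a microglia, T or NK cell marker. These members came from the libraries as 4, 50 and 8 nuclei, so replicate 2 carried most of the weight, and nuclei with endothelial markers were not left out. Among the 375, 10 of 3354 genes were called, all higher. They included CXCL11 (2.12), IDO1 (2.41), PTX3 (2.14), CHI3L1 (3.11), TNC (2.24), VCAM1 (2.50) and GAP43 (1.66), and, not called over all members, COL4A1 (2.21), a basement membrane collagen. IL7, SLC39A8, SLC1A2 and SLC4A4 were not among the calls. Of the 37 called genes selected by the naming rules, 30 could be tested here. Of these, 5 were called and 25 kept their direction without passing. The part of the smaller number of nuclei and genes in the missing calls was not tested. The direction held for 114 of the 115 genes of the 134 that could be tested.

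To see whether the same genes mark CXCL10+ nuclei of other cell types, each type was compared with itself in the same way, and the difference between the effects was tested. The microglia gave 295 rises (2.37%) and 164 falls (1.32%) among 12427 genes, and the Endo nuclei 320 rises (2.66%) and 422 falls (3.51%) among 12038. The interaction with microglia gave 57 genes (0.448%) with a higher and 48 (0.377%) with a lower effect in astrocytes, and that with Endo 184 (1.45%) and 36 (0.284%). In ExN, InN (inhibitory neurons) and Oligo nuclei, where single UMIs prevail, edgeR called 4, 0 and 0 of 13813, 10909 and 9433 genes, and 675, 396 and 336 had an unadjusted p below 0.05, under 5% of the genes in each. OPC nuclei had fewer than 20 positive nuclei in 1 library and were not tested. The CXCL10+ classes differed in CXCL10 UMIs per nucleus between the types. Exactly 1 UMI was counted in 60.6% of CXCL10+ astrocyte, 46.1% of CXCL10+ microglia and 39.0% of CXCL10+ Endo nuclei. In the same order, 11.4%, 12.5% and 33.6% held 10 or more. The part of this in the differences between types was not tested.

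CXCL11 and IDO1 rose in all 3 types. CXCL11 rose by 2.75 in astrocytes, by 2.64 in microglia and by 4.53 in Endo, and the astrocyte effect was lower than that of Endo (-1.86 ± 0.32, adjusted p = 0.000624). For IDO1 the rises were 2.28, 1.96 and 2.85, and neither difference passed. WARS rose less in astrocytes than in Endo (0.88 against 1.71, adjusted p of the difference 0.00127), and so did GBP1 (0.58 against 1.62, adjusted p of the difference 0.000257).

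Some genes differed more between the astrocyte classes than between those of another type. IL7 rose by 2.72 in astrocytes and by 0.65 in microglia, a difference of 1.96 ± 0.19. In Endo its value was 0.83 (adjusted p = 0.179), and the difference from the astrocytes missed the limit (adjusted p = 0.0162). RASSF5 rose by 2.78 in astrocytes, with 0.40 in microglia and -0.48 in Endo, neither of which passed, and both differences from the astrocytes passed, at 2.35 ± 0.33 and 3.11 ± 0.49. SLC39A8 exceeded Endo by 1.62, PTX3 exceeded Endo by 2.19, and GAP43 exceeded microglia by 0.98 and Endo by 1.26. The differences of SLC39A8 and PTX3 from microglia did not pass (0.71 and 1.77, adjusted p = 0.0108 and 0.0317). Among the falls, the astrocyte minus the microglial effect was -0.92 for SLC4A4, -1.07 for ABAT and -0.85 for CLYBL, while their differences from Endo did not pass (adjusted p = 0.803, 0.431 and 0.0225). For SLC1A2 neither difference passed at 0.01 (adjusted p = 0.0492 against microglia and 0.984 against Endo).

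**Figure D5:**
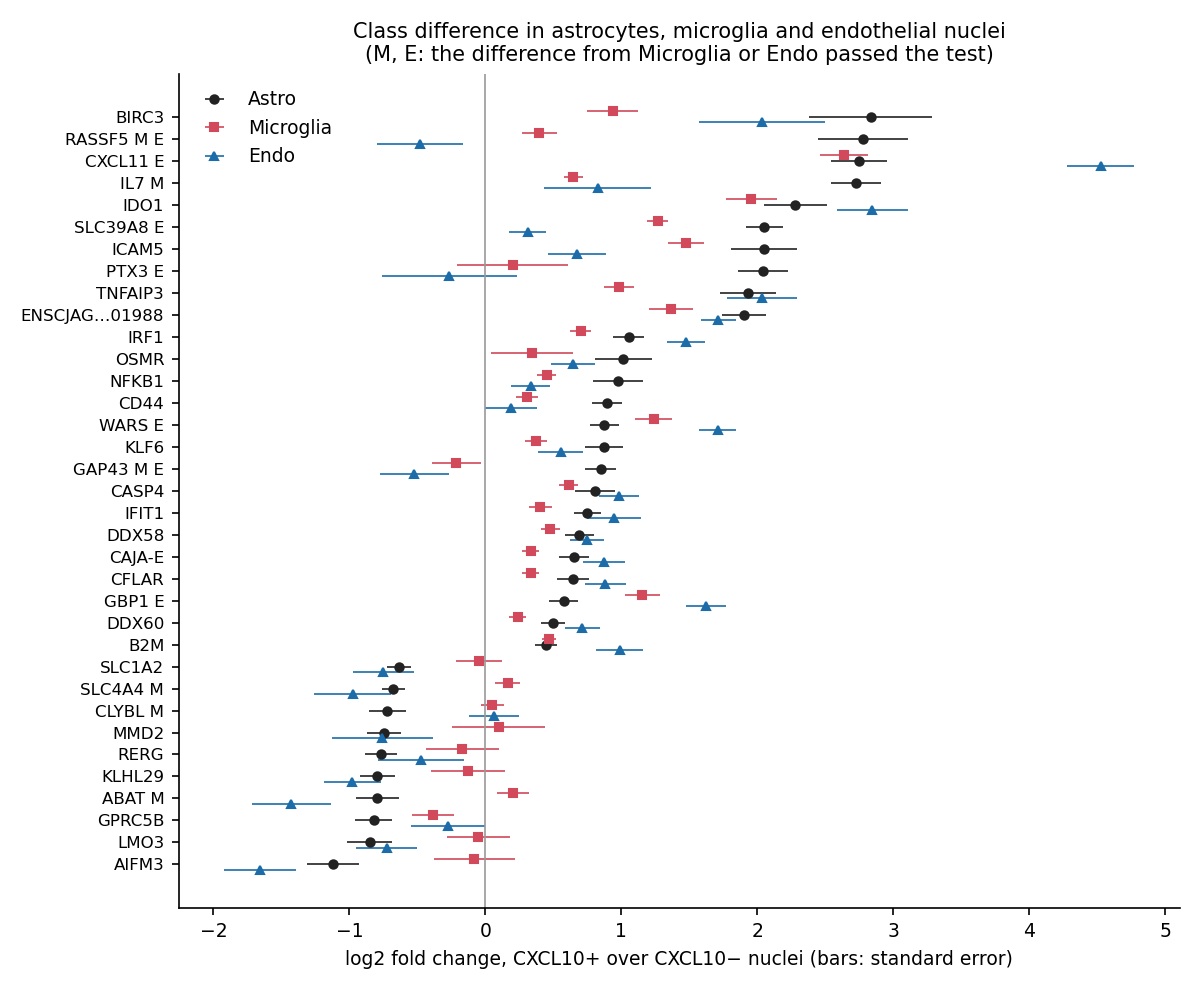
Log2 fold change of CXCL10+ over CXCL10- nuclei (x axis, bars are standard errors) in astrocytes (black), microglia (red) and Endo nuclei (blue) for the named genes called in astrocytes and tested in all 3 types. M or E after a name marks a difference from microglia or Endo that passed at an adjusted p of 0.01. CXCL11 is at 2.75, 2.64 and 4.53, and RASSF5 at 2.78, 0.40 and -0.48.

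Levels in uninjured astrocytes are given for orientation only, since the control library differs in protocol and facility and has no replicate. Its 362 astrocyte nuclei held 8 UMIs of IL7 (11.5 CPM), 4 of IDO1 (5.77 CPM) and 13 of CD44 (18.8 CPM), below both injured classes. SLC1A2 stood at 12121 CPM, above both. GFAP stood at 141 CPM and SLC1A3 at 1321 CPM, below both. No test was made across the cohorts.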

How the data were processed

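Nuclei from adult marmoset V1 were profiled by single-nucleus RNA sequencing. The authors aligned reads with Cell Ranger 3.1.0 to calJac3 with Ensembl genes, used Scrublet to take doublets out of the injured libraries, clustered with Seurat, and deposited UMI counts (raw, unnormalized) and a table of cell types. The 3 injured libraries held 35737777 to 48722394 UMIs. No further doublet caller was run.

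Counts of CXCL10+ and CXCL10- astrocyte nuclei were summed per library and tested with edgeR 4.0.16 (R 4.3.3; TMM factors, filterByExpr, quasi-likelihood test) with library as a block, since both classes came from the same animal. With 1 library per animal, the class difference was read over 3 animals. The test also draws the dispersion of each gene from the other genes. The p-values therefore do not measure the spread of 1 gene over the animals alone. Class effects of other cell types were compared with an interaction term. CXCL10 defined the classes and was left out. The nuclei and gene lists were chosen with earlier results of these data known. Named genes were the 10 largest rises and falls with at least 20 UMIs and 1 direction in all libraries, the 3 most abundant tested members of each list, and genes that the study names. Alternatives were DESeq2 1.42.0, other scalings, filters, limits, depths and class definitions, and each library left out. In data simulated for this comparison 200 genes were changed, of which 193 were tested at 2-fold and 189 at 4-fold. Of these, 51.3% (10553 genes tested in all) and 87.3% (10542 genes) were called, with 0 and 2 unchanged genes called. The simulated calls left out the limit of 10% of nuclei with a UMI. Counts were drawn from the fitted model, which holds no link between the depth of a nucleus and its class. False calls from such a link were not measured. Python 3.11.15 with pandas 2.3.3, scipy 1.17.1 and matplotlib 3.10.9 made the sums, the exact binomial intervals and the plots. Some genes that these rules select are not reported here.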

Additional observations from a re-analysis of the deposited data

Results flagged for a closer look

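Some class differences of named genes differed between cell types by a test of the difference itself (edgeR interaction, adjusted p below 0.01). Each value is the log2 difference of CXCL10+ over CXCL10- nuclei in astrocytes minus that in the other type. The CXCL10+ classes of the types also differed in CXCL10 UMIs per nucleus, and the part of this was not tested. Against microglia it was 2.35 for RASSF5, 1.96 for IL7, 0.98 for GAP43, -0.85 for CLYBL, -0.92 for SLC4A4 and -1.07 for ABAT. Against Endo it was 3.11 for RASSF5, 2.19 for PTX3, 1.62 for SLC39A8, 1.26 for GAP43, -0.94 for WARS, -1.17 for GBP1 and -1.86 for CXCL11.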

How the results depend on the processing

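The count of 134 calls changed with the test, the filter, the class limit and the nuclei used, and thinning and matching also cut the genes tested or the CXCL10- nuclei. It was 68 with DESeq2, 286 without the low-count filter, 258 at an adjusted p of 0.05, 37 in thinned nuclei, 27 against CXCL10- nuclei nearest in UMIs, 10 without nuclei holding microglia, T or NK cell markers, 427 for at least 2 UMIs against 0 and 223 with the class read from thinned counts. Chosen after seeing the data, it was 315 for at least 4 UMIs and 1 for 1 UMI. Leaving out 1 library gave 13 to 199, and 89 to 250 for at least 4 UMIs. Without the replicate block, which pairs the classes of an animal, edgeR called 0 genes, with 843 at an unadjusted p below 0.05. DDX58 reversed at 1 UMI (-0.0071, adjusted p = 0.998). Every tested gene of the 134 kept its direction elsewhere, except 5 at 1 UMI and 1 without those markers. These settings reuse the libraries in which the 134 were chosen.

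The 41 list members called became 15 in thinned nuclei, 11 against nuclei nearest in UMIs, 7 without nuclei holding those markers, 1 at 1 UMI and 10 to 50 with 1 library left out. The mean astrocyte share of 14.3% became 6.36% when thinned, 5.54% at 2 or more UMIs, 2.39% at 2 or more when thinned and 3.28% at 4 or more.

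Interactions with Endo, ExN, InN, Microglia and Oligo gave 220, 108, 22, 105 and 19 genes. With DESeq2 these were 132, 26, 4, 44 and 0, in thinned nuclei 49, 18, 1, 49 and 0, and at an adjusted p of 0.05 563, 189, 44, 227 and 31. Without the filter Endo gave 434. Leaving out 1 library gave 58 to 120, 9 to 101, 6 to 17, 15 to 114 and 1 to 8. The causes were not tested. With 1 UMI separating most members from the other class, the depth limits which nuclei can be told apart.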

Other observations

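Interferon and CXCR3 ligand transcripts too low for a test, chosen after their values were seen, were counted per nucleus. IFNB1, which encodes interferon-beta, had 7 UMIs in 3 of the 78 astrocyte nuclei with 4 or more CXCL10 UMIs, of which 2 UMIs were in 1 nucleus of injured replicate 1 and 5 in 2 nuclei of replicate 2. The 1754 CXCL10- astrocyte nuclei held 1 UMI. IFNB1 was also counted in other types, with 3 UMIs in 2 of 124 CXCL10+ OPC nuclei, 2 UMIs in CXCL10+ and 3 in CXCL10- microglia, and 3 in CXCL10- ExN nuclei. CXCL9 UMIs were found in 7 CXCL10+ astrocyte nuclei, all of replicate 2, which held 12 UMIs. CXCL10+ Endo nuclei held 212 CXCL9 UMIs and CXCL10+ microglia 482.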
